A study of Mus musculus with 6 samples.

Results

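Sebaceous glands open into the hair canal and coat skin and hair with sebum, a mixture that in mice is rich in wax esters and sterol esters. Their cells, the sebocytes, build up lipid droplets as they mature and release them by bursting. Fatty acids are activated and desaturated, part of them is reduced to fatty alcohols, and acyltransferases join acids to alcohols, glycerol or cholesterol. Most of the 10 genes described here act along that route, while Mc5r encodes a hormone receptor and Cidea acts on lipid droplets. The 10 genes were taken by symbol from the deposited table of 19309 genes, where all 10 were found. All 10 were among the 15109 genes that passed the filter on low counts. They are Mc5r (gene 17203), Far2 (330450), Awat1 (245533), Awat2 (245532), Dgat2l6 (668257), Mogat1 (68393), Soat1 (20652), Scd3 (30049), Acsbg1 (94180) and Cidea (12683).

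Poly(A) RNA was sequenced from the cheeks of 3 C57BL/6 mice (6 to 8 weeks old), with 1 library per cheek and thus 3 libraries per group. The shaved right cheek was wiped 2 times a day with acetone and ether in equal volumes for 30 s followed by 30 s of distilled water (called AEW), and the left cheek with distilled water for 60 s (vehicle). Tissue was taken on day 12. No genotype beyond the strain and no sex is given in the labels, treatment and side of the face cannot be told apart, and replicate numbers are mouse numbers.

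Library totals ran from 18449207 to 19506491 estimated counts. The AEW library of mouse 1 stood apart from the other AEW libraries, with a chi-square per degree of freedom of 68.7 and 57.2 against them, compared with 19.7 between those of mice 2 and 3 and 19.1 to 26.5 among vehicle libraries. Its summed level of 16 measured hair follicle markers was 2140 TPM (a per-length scale of transcript share), against 21.5 and 572 TPM in the AEW libraries of mice 2 and 3 and 305 to 333 TPM in vehicle skin. Results that change without it are given both ways below. The values are from whole skin, so fewer sebocytes and less RNA per sebocyte cannot be told apart.

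Transcripts of genes listed as sebocyte markers were found in every library. Of 12 sebocyte markers other than the members 11 were in the table, and their summed level was 6131 to 6622 TPM in vehicle skin and 7090 to 9063 TPM in AEW skin, with Scd1, Fabp5 and Krt79 the most abundant. Within that sum the group mean of Fabp5 went from 1090 to 2374 TPM and that of Scd1 from 2617 to 1870 TPM. Scd1 is also a desaturase of fat, so the sum does not measure sebocyte content alone. Of the 11 markers 3 rose (Elovl3, Fabp5 and Krt79) and 1 fell, and at an unadjusted p under 0.05 the counts were 4 higher and 3 lower. The call of Fabp5 was lost on blocking by mouse (edgeR adjusted p = 0.0571). Fabp5 was called in 1 and Elovl3 in 2 of 6 fits that left out a library. Their log2 fold changes ran from -0.80 for Fasn, the fatty acid synthase gene (adjusted p = 0.143), to 1.13 for Elovl3. Krt79, a keratin of the sebaceous duct and the upper hair follicle, rose from 1268 ± 175 to 2066 ± 245 CPM (counts scaled to library size by TMM, SD, n = 3; log2 fold change 0.70, edgeR adjusted p = 0.032). The sum of the 10 members was 1326, 1196 and 1097 TPM in vehicle mice 1, 2 and 3 and 1050, 1854 and 2013 TPM in AEW mice 1, 2 and 3. It was thus lower on the treated side in mouse 1 and higher there in mice 2 and 3.

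Awat2, Dgat2l6 and Awat1 are neighbours on the X chromosome in the RefSeq annotation of GRCm38.p6, and their values moved together within each mouse, so the 100 bases before each start site are shown here. The submitters' processing notes name GRCm39, so these positions belong to another build. RefSeq lists 2 starts for Awat2. Capitals mark matches to the 6 motifs searched on both strands, which are the DR1 repeat read by PPAR and RXR receptors, its single element AGGTCA, the TATA box TATAAA, the CCAAT box (CCAAT), the GC box GGGCGG and the E-box CACGTG.
Dgat2l6, chrX:100524738-100524837, plus strand: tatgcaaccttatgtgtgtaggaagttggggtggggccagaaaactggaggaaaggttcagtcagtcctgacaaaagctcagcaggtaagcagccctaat
Awat1, chrX:100572147-100572246, plus strand: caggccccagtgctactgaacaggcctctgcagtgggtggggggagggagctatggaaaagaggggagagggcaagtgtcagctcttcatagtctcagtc
Awat2, chrX:100412588-100412687, minus strand: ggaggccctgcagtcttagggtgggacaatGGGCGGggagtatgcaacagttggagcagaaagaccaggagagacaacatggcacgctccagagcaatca
Awat2, chrX:100442718-100442817, minus strand: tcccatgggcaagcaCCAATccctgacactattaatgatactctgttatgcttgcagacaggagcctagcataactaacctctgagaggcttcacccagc
The windows share no searched motif. Over the full 300 bases (250 before and 50 after the start), Dgat2l6 held none of the 6, Awat1 held CCAAT at 43 on the strand opposite to the gene, and Awat2 held CCAAT at both starts and GGGCGG at -70 of the start nearer the 3′ end. Matches to CCAAT and GGGCGG are common, since 37.4% and 35.7% of 32851 promoters held them. AGGTCA was held by 16.3%, TATAAA by 13.6% and CACGTG by 7.15%. The DR1 repeat, which contains AGGTCA, was rare at 0.0396%.

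In vehicle skin the deposited TPM placed Far2 first at 432 ± 47.5 (SD, n = 3), followed by Cidea at 262 ± 23.8, Acsbg1 at 191 ± 14.5 and Awat1 at 107 ± 34.5. Soat1 at 68.8 ± 14.6, Awat2 at 51.3 ± 23.3, Scd3 at 48.9 ± 26.9 and Dgat2l6 at 28.1 ± 21.1 TPM came next, and these neighbours in the order did not differ beyond their spread. Mc5r stood at 13.5 ± 1.68 and Mogat1 at 3.45 ± 1.37 TPM. In AEW skin Far2 and Cidea kept the first places at 653 ± 162 and 308 ± 76.7 TPM, Awat1 followed at 251 ± 141, and Scd3 at 11.4 ± 12.3 TPM lay beside Mc5r at 10.5 ± 1.61.

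AEW skin was compared with vehicle skin to ask how the treatment changed sebaceous lipid genes. By edgeR's quasi-likelihood test with a threshold of 0.05 on the adjusted p, 0 of the 10 members rose and 1, Mogat1, fell, where 4.85% of all tested genes rose and 6.80% fell (11.6% in either direction). Unadjusted p-values under 0.05 were found for 1 higher and 4 lower members and for 30.8% of all genes, and DESeq2 called 1 higher (Far2) and 2 lower (Acsbg1 and Mogat1), against 19.0% of the genes it tested in either direction and 9.02% higher. Blocking on the mouse left 0 members higher and 0 lower after adjustment over all genes, against 1.99% and 3.89% of tested genes (5.88% in either direction). At an unadjusted p under 0.05 the blocked fit gave 0 higher and 4 lower members, against 1953 and 2209 of 15109 tested genes. Groups did not overlap for 0 higher and 3 lower members, against 36.9% of all genes in either direction (17.4% and 19.5%). The members' log2 fold changes ran from -2.19 to 1.77 with a median of 0.26, against a median of 0.014 over all tested genes. Leaving out the AEW library of mouse 1 gave 3 higher members and 1 lower, against 7.83% and 6.81% of tested genes. Leaving out that of mouse 3 gave 0 higher and 2 lower, against 2.27% and 4.28%. The 6 members called in these fits were called in no other fit that left out a library. A blocked fit without either cheek of mouse 1, chosen after seeing the data, gave 4 higher and 3 lower members, against 12.7% and 10.5% of tested genes. The same fit without mouse 2 gave 0 and 0 members, against 0.738% and 1.84%, and without mouse 3 it gave 0 and 0 members, where edgeR called 0 of all genes.

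**Figure D1:**
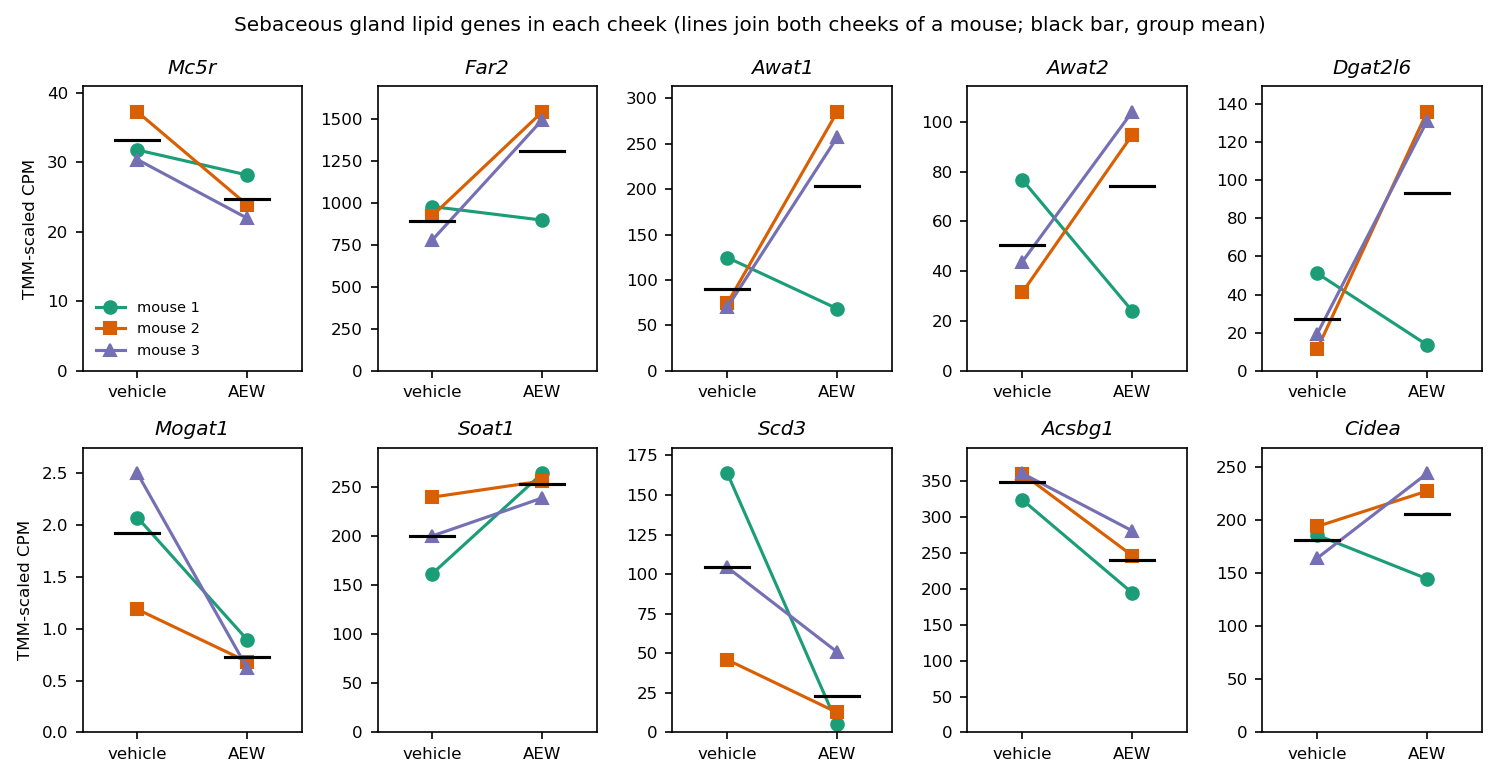
Each panel plots the TMM-scaled CPM of a member (vertical axis from 0, own scale) in vehicle and AEW skin, with lines joining both cheeks of a mouse and black bars at the group means. The lines of Awat1, Awat2 and Dgat2l6 fall in mouse 1 and rise in mice 2 and 3, whereas those of Mc5r, Mogat1, Scd3 and Acsbg1 run downward in all 3 mice.

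The acyltransferases that join a fatty acid to a fatty alcohol went opposite ways in different mice. Awat1 encodes an acyl-CoA wax alcohol acyltransferase. It measured 125, 74.4 and 70.1 CPM in vehicle mice 1, 2 and 3 and 68.5, 285 and 257 CPM in AEW mice 1, 2 and 3. The AEW values of mice 2 and 3 were above every vehicle value and that of mouse 1 was below all of them, so the groups overlapped. The group means were 89.7 ± 30.4 and 204 ± 118 CPM (SD, n = 3), with a log2 fold change of 1.18 (SE 0.51, 95% interval -0.011 to 2.37, edgeR adjusted p = 0.165). The treated cheek of mouse 1 held 0.549 of the vehicle level (95% exact binomial interval 0.513 to 0.587), that of mouse 2 held 3.83 times (3.61 to 4.06) and that of mouse 3 held 3.67 times the vehicle level (3.45 to 3.91). These intervals cover counting error only. Without the AEW library of mouse 1 the log2 fold change was 1.58 (adjusted p = 0.0132).

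Awat2, the second wax alcohol acyltransferase, which is also known to act on retinol, measured 76.7, 31.5 and 43.8 CPM in vehicle mice 1 to 3 and 24.1, 94.7 and 104 CPM in AEW mice 1 to 3. Again the AEW values of mice 2 and 3 exceeded all vehicle values and that of mouse 1 lay below them. The log2 fold change was 0.55 ± 0.55 (SE), with a 95% interval from -0.74 to 1.84 and an edgeR adjusted p of 0.533. Within mice the ratio was 0.314, 3.00 and 2.37. Without the AEW library of mouse 1 the log2 fold change was 0.96 (adjusted p = 0.102), and over all 6 fits that left out a library it ran from 0.22 without AEW replicate 3 to 0.98 without vehicle replicate 1. In the blocked fits it was 1.41 without mouse 1 (adjusted p = 0.000532), -0.20 without mouse 2 and -0.037 without mouse 3 (adjusted p = 0.912 and 0.991).

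Dgat2l6, a relative of the diacylglycerol acyltransferase Dgat2 that lies between the other two, had the widest range. Its vehicle values were 51.2, 11.5 and 19.6 CPM and its AEW values 13.6, 136 and 131 CPM in mice 1, 2 and 3. In mouse 1 the treated cheek held 0.266 of the vehicle level (95% interval 0.232 to 0.305), while it held 11.8 times that level in mouse 2 (10.3 to 13.6) and 6.70 times in mouse 3 (5.99 to 7.51). For Dgat2l6 the log2 fold change was 1.77 ± 0.86 (SE, 95% interval -0.25 to 3.79, edgeR adjusted p = 0.211), and without the AEW library of mouse 1 it was 2.27 (adjusted p = 0.038). It ran from 1.39 without AEW replicate 2 to 2.59 without vehicle replicate 1.

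All 3 X-linked acyltransferases were thus at least 1.5 fold lower on the treated side in mouse 1 and at least 2 fold higher there in mice 2 and 3. That pattern, described after the values were seen, occurred in 137 of 15109 tested genes (0.907%). The tested genes between and beside them did not share it. Igbp1, which lies between Awat2 and Dgat2l6 and encodes a phosphatase-binding protein, had log2 ratios of -0.15, 0.049 and 0.049 in mice 1, 2 and 3, and P2ry4, next to Awat1, had 0.35, -0.78 and 0.015. Beside this split, the hair follicle markers moved the other way in mouse 1, with a median log2 ratio of 2.68 there, -3.42 in mouse 2 and 0.66 in mouse 3. Their part in the result was not tested.

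**Figure D2:**
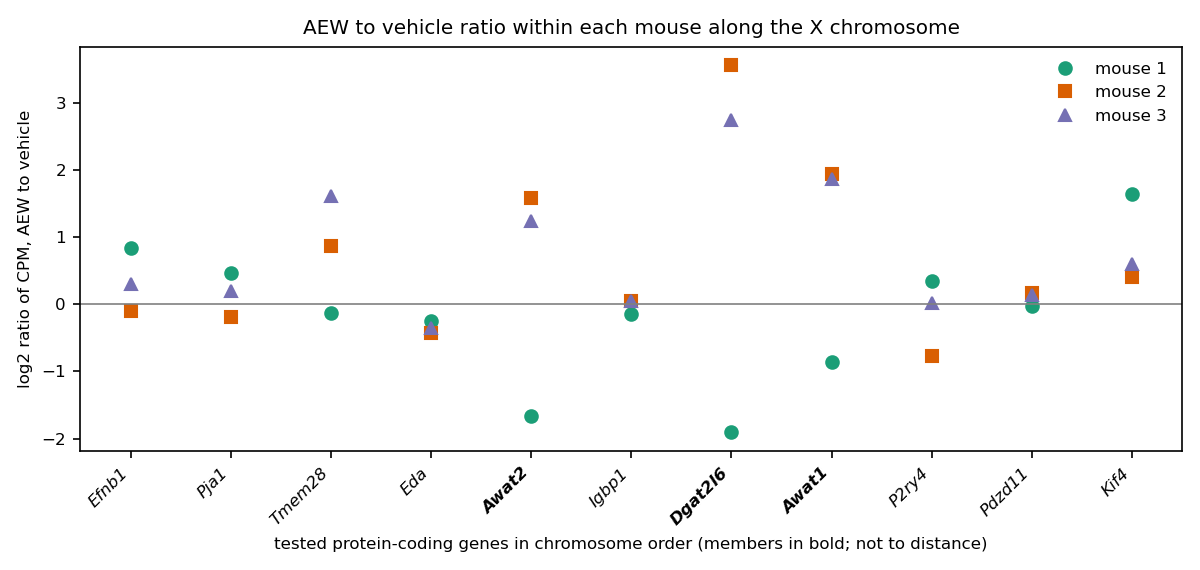
Points give the log2 ratio of AEW to vehicle CPM within each mouse for 11 tested protein-coding genes in their order along the X chromosome, with members in bold and distances not drawn. Awat2, Dgat2l6 and Awat1 lie below 0 in mouse 1 and above 1 in mice 2 and 3, while Igbp1 between them lies within 0.2 of 0 in all 3 mice.

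Far2, which encodes a fatty acyl-CoA reductase that makes the alcohols for wax esters, was the most abundant member. Its vehicle values were 979, 925 and 780 CPM and its AEW values 898, 1542 and 1495 CPM in mice 1, 2 and 3. The treated cheeks of mice 2 and 3 stood above all others, and that of mouse 1 was within the vehicle range. The log2 fold change was 0.55 ± 0.22 (SE, 95% interval 0.037 to 1.07, edgeR adjusted p = 0.141). With the mouse as a block it was 0.52, and the interval included 0 (-0.086 to 1.12, edgeR adjusted p = 0.23). With group alone it was 0.75 without the AEW library of mouse 1 (adjusted p = 0.0155), and DESeq2 gave an adjusted p of 0.0491. Its relative Far1 went from 49.9 ± 5.30 to 105 ± 42.2 CPM, with an adjusted p of 0.0517, and its ratio was above 1 in all 3 mice.

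Mogat1 encodes a monoacylglycerol acyltransferase and was the least abundant member. Vehicle libraries held 38, 22 and 45 estimated counts (2.07, 1.19 and 2.50 CPM) and AEW libraries 18, 13 and 12 (0.894, 0.682 and 0.620 CPM) in mice 1, 2 and 3. All AEW values lay below all vehicle values, as they did for 19.5% of tested genes. Mogat1 fell by 1.38 on the log2 scale (SE 0.36, 95% interval -2.22 to -0.54, edgeR adjusted p = 0.0499). The call was lost on blocking by mouse (adjusted p = 0.0967) and in each fit that left out a library other than vehicle replicate 2, with adjusted p of 0.15 and 0.188 without vehicle replicates 1 and 3 and of 0.0526, 0.131 and 0.127 without AEW replicates 1, 2 and 3. It was also lost with other scalings, as given under the dependence on processing.

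Soat1 encodes the enzyme that esterifies cholesterol, and it was the member with higher values on the treated side of all 3 mice. It measured 162, 240.0 and 200.5 CPM in vehicle mice and 264, 256 and 239 CPM in AEW mice 1, 2 and 3. The lowest AEW value was just under the highest vehicle value. For Soat1 the log2 fold change was 0.33 ± 0.15 (SE, 95% interval -0.017 to 0.69, edgeR adjusted p = 0.18), and it was 0.20 without vehicle replicate 1. The AEW libraries were closer together (SD 12.8 CPM) than the vehicle libraries (SD 39.0 CPM), and the ratio ran from 1.07 in mouse 2 to 1.63 in mouse 1.

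**Figure D3:**
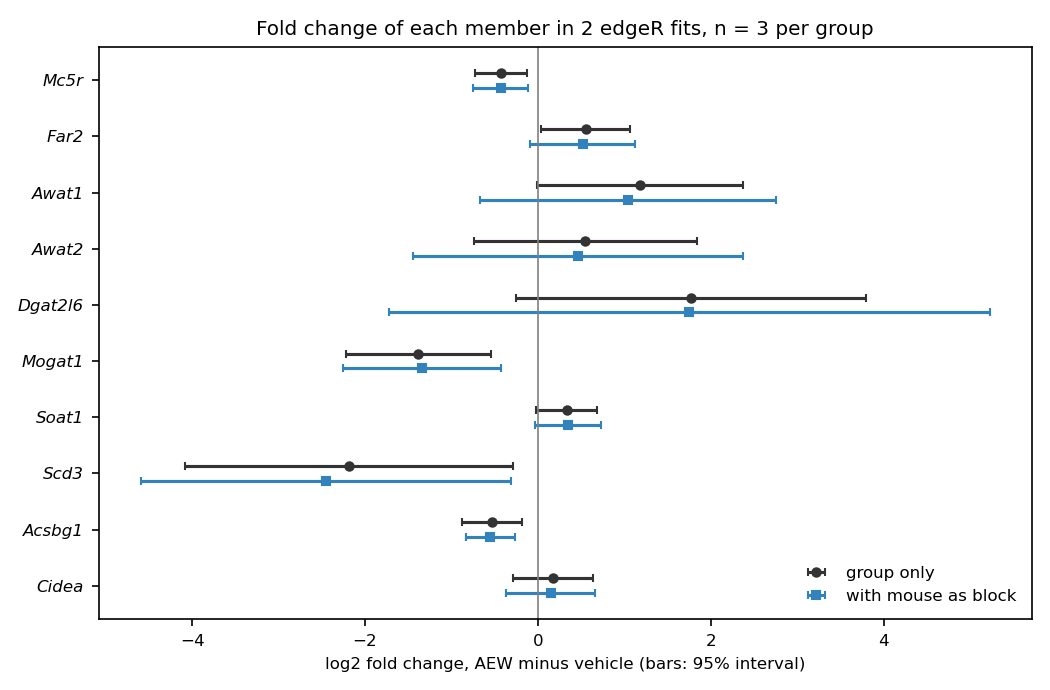
Points give the log2 fold change of AEW minus vehicle for each member in the edgeR fit with group alone (circles) and with the mouse as a block (squares), with 95% intervals, over 3 libraries per group. The widest intervals belong to Dgat2l6, Scd3, Awat1 and Awat2. With group alone the intervals of Mc5r, Mogat1, Scd3 and Acsbg1 lie below 0 and that of Far2 above 0, before adjustment over all genes. With the mouse as a block that of Far2 includes 0.

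Scd3 and Acsbg1 act on fatty acids before they are esterified, and both were lower on the treated side in all 3 mice. Scd3, a stearoyl-CoA desaturase known from sebocytes in mouse skin, measured 164, 45.8 and 104 CPM in vehicle mice 1, 2 and 3 and 5.61, 12.6 and 50.8 CPM in the same mice after AEW. The groups overlapped, because the AEW value of mouse 3 exceeded the vehicle value of mouse 2. Treated cheeks held 0.0343 of the vehicle level in mouse 1 (95% interval 0.0282 to 0.0414), against 0.275 for mouse 2 (0.237 to 0.317) and 0.487 for mouse 3 (0.451 to 0.527). On the log2 scale the change was -2.19 ± 0.81 (SE, 95% interval -4.09 to -0.28), with an edgeR adjusted p of 0.121. Without the AEW library of mouse 3 it was -3.53 (adjusted p = 0.0405), and in the other fits that left out a library it ran from -2.54 to -1.71.

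The desaturase relatives went different ways. Scd1, the main desaturase of sebum and fat, stood at 7790 ± 1316 CPM in vehicle and 5329 ± 290.1 CPM in AEW skin (adjusted p = 0.0679), and was lower in all 3 mice. Scd2 rose from 106 ± 13.2 to 189 ± 37.1 CPM (log2 fold change 0.84, edgeR adjusted p = 0.0263) and was called in 2 of 6 fits that left out a library. Its call was lost without vehicle replicates 1, 2 or 3 or AEW replicate 3, with adjusted p up to 0.119. Scd4 was low, at 1.35 to 3.49 CPM in vehicle and 1.64 to 5.41 CPM in AEW skin, with log2 ratios of -1.09, 2.00 and 1.26 in mice 1, 2 and 3. In the transcripts of GENCODE M21, 6.54% of the distinct 50-base windows of Scd3 also occur in another gene, mainly Scd1 and Scd2, so a small part of its reads of 50 bases could be divided among the family. For the other members the share was at most 0.506%.

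**Figure D4:**
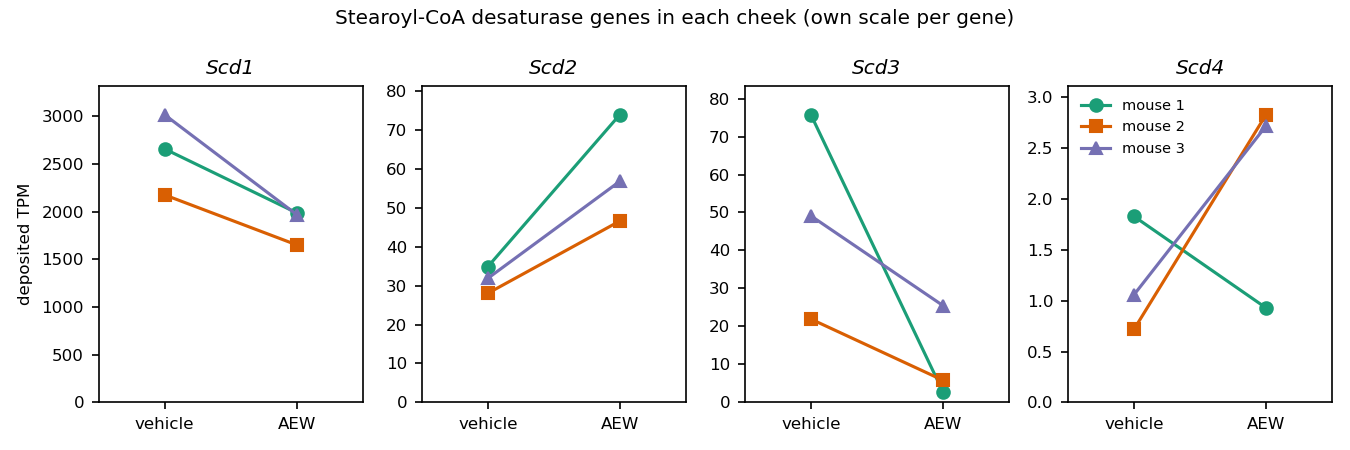
Panels plot the deposited TPM (vertical axis from 0, own scale) of the 4 Scd genes in vehicle and AEW skin, with lines joining both cheeks of a mouse. Scd1 and Scd3 run downward and Scd2 upward in all 3 mice, while Scd4 falls in mouse 1 and rises in mice 2 and 3.

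Acsbg1 encodes an acyl-CoA synthetase for long and very long chains. It measured 324, 360.5 and 361 CPM in vehicle mice 1, 2 and 3 and 195, 246 and 281 CPM after AEW, so the groups did not overlap. Its log2 fold change was -0.53 ± 0.15 (SE, 95% interval -0.88 to -0.19), with an edgeR adjusted p of 0.0582. Without the AEW library of mouse 3 it was -0.66 (adjusted p = 0.0486), and DESeq2 gave -0.53 (adjusted p = 0.00645). In the other edgeR fits that left out a library the adjusted p ran from 0.0523 to 0.196, and with the mouse as a block it was 0.0598.

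Mc5r, the melanocortin receptor through which peptide hormones raise sebum output in mice, measured 31.8, 37.3 and 30.4 CPM in vehicle and 28.2, 23.9 and 22.0 CPM in AEW mice 1, 2 and 3. The groups did not overlap, and the ratio was 0.887, 0.641 and 0.722. The log2 fold change was -0.43 ± 0.13 (SE, 95% interval -0.73 to -0.12, edgeR adjusted p = 0.0741), and without the AEW library of mouse 1 it was -0.54 (adjusted p = 0.0274). In the other edgeR fits that left out a library the adjusted p ran from 0.159 to 0.179, and with the mouse as a block it was 0.112. Of the other melanocortin pathway genes listed, 9 of 16 were tested, and 1 rose and 1 fell. Adcy3 (an adenylate cyclase) rose by a log2 fold change of 0.59 (edgeR adjusted p = 0.0338), and Adcy6, another, fell by 0.51 on the log2 scale (edgeR adjusted p = 0.0311). Gnas, the stimulatory G protein subunit, and Mrap, a receptor accessory protein, had log2 fold changes of -0.45 and -0.94 (adjusted p = 0.0816 and 0.0988). With the mouse as a block 0 rose (1 at an unadjusted p under 0.05 in edgeR). The call of Adcy3 was lost in 5 of 6 fits that left out a library, all but that without AEW replicate 1, and that of Adcy6 on leaving out vehicle replicate 1 or 3 or AEW replicate 2. Without vehicle replicate 2 or AEW replicate 1, 2 genes of the list were lower.

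Cidea, which promotes the fusion of lipid droplets, was second in abundance by the deposited TPM. Its vehicle values were 186, 194 and 164 CPM and its AEW values 145, 227 and 244 CPM in mice 1, 2 and 3. As for Far2, the treated cheeks of mice 2 and 3 were the highest, and here that of mouse 1 was the lowest. Its log2 fold change was 0.18 ± 0.20 (SE, 95% interval -0.28 to 0.64, edgeR adjusted p = 0.573). Leaving out a library moved it from 0.037 without AEW replicate 3 to 0.37 without AEW replicate 1 (adjusted p = 0.0654), with 0.097 without AEW replicate 2 and 0.11 without vehicle replicate 3. It was -0.066 in the blocked fit without mouse 3. Cidea is also known from brown fat, whose uncoupling protein gene Ucp1 had at most 0.216 CPM in any library. Of 13 tested adipocyte markers 1 was higher and 4 lower, and 1 and 0 with the mouse as a block. The median log2 ratio of these markers was -0.99, 0.014 and -1.22 in mice 1, 2 and 3. Their summed level was 7700 to 12502 TPM in vehicle and 5617 to 6596 TPM in AEW skin. Of these markers Dio2, a thyroid hormone deiodinase, was higher by 1.80 on the log2 scale and Cfd, the adipsin gene, fell by 1.06 on the log2 scale (edgeR adjusted p = 0.00573 and 0.0304). Cfd lost its call when vehicle replicate 1 or 3 or AEW replicate 2 or 3 was left out. Their part in the Cidea values was not tested.

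The genes around the members in the same pathways were counted in lists. Of 19 genes for wax ester and glyceride synthesis other than the members 17 were tested, and 0 rose and 2 fell in edgeR, with 3 higher and 5 lower at an unadjusted p under 0.05 and 3 of each called by DESeq2. Gpam, for the first acylation of glycerol, fell from 194 ± 13.3 to 151 ± 3.54 CPM (log2 fold change -0.36, edgeR adjusted p = 0.046), and Lpin1, a phosphatidate phosphatase, fell by 0.73 on the log2 scale (edgeR adjusted p = 0.0487). With the mouse as a block 0 fell (6 at an unadjusted p under 0.05), and 0 fell when vehicle replicate 1 or 3 or any 1 AEW library was left out. Leaving out AEW replicate 1 gave 4 higher. Summed levels of adipocyte and skeletal muscle markers were also lower in AEW than in vehicle skin. Their part in the falls of Gpam and Lpin1 was not tested. Lpin2 had a log2 fold change of 0.92 (adjusted p = 0.0615). Dgat2 and Dgat1, which complete triglycerides, stood at 326 ± 64.8 and 72.3 ± 8.98 CPM in vehicle and 223 ± 34.3 and 96.5 ± 35.5 CPM in AEW skin (adjusted p = 0.0945 and 0.354). Mogat2 and Soat2, the closest relatives of Mogat1 and Soat1, and Acsbg2 did not pass the filter, with at most 0.328, 0.648 and 0.103 CPM in any library.

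Genes for fatty acid synthesis, elongation and activation included 3 that rose and 5 that fell of 34 tested. Elovl3, an elongase known from sebocytes and brown fat, rose from 227 ± 46.6 to 499 ± 110 CPM (log2 fold change 1.13, edgeR adjusted p = 0.0221). Hacd1, a dehydratase of elongation that is abundant in muscle, fell from 28.2 ± 3.94 to 13.6 ± 1.28 CPM (edgeR adjusted p = 0.0105) and was called in 6 of 6 fits that left out a library. Elovl5 fell by 0.62 on the log2 scale (edgeR adjusted p = 0.0193). With the mouse as a block 3 fell. The higher count was 0 on leaving out vehicle replicate 1 or 3 or AEW replicate 3, 1 when AEW replicate 2 was left out and 6 when AEW replicate 1 was. The lower count was 1 when vehicle replicate 1 or 3 or AEW replicate 2 was left out, 3 when AEW replicate 3 was, and 9 when vehicle replicate 2 was.

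Of 22 tested genes of lipid droplet coats and lipolysis 0 rose and 1 fell in edgeR, with 2 higher and 7 lower at an unadjusted p under 0.05 and 1 and 6 called by DESeq2. The gene that fell was Fitm1, which takes part in droplet formation and is abundant in skeletal muscle, from 63.5 ± 11.7 to 27.8 ± 4.18 CPM (log2 fold change -1.19, edgeR adjusted p = 0.0123). The count of lower genes was 0 without vehicle replicate 1 or 3 and 5 without vehicle replicate 2, and 3 were higher without AEW replicate 1. Hsd17b11, Cidec and Pnpla2 had log2 fold changes of -0.52, -0.91 and -0.70 (adjusted p from 0.0625 to 0.0704). Skeletal muscle markers fell beside Hacd1 and Fitm1, with 13 of 15 lower and 0 higher, and their summed level was 42913 to 59184 TPM in vehicle and 18024 to 24811 TPM in AEW skin. Mylpf and Pvalb, of fast fibres, fell (edgeR adjusted p = 0.00478 and 0.00819), Mylpf by 1.63 on the log2 scale. Their part in these falls was not tested.

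Of 19 tested genes listed as regulators of the sebaceous lineage, 1 rose, Krt79, whose values are given above. It encodes a keratin and is also counted among the sebocyte markers. No other gene of the list was called higher in the edgeR fit with group alone. Krt79 was called in 2 of 6 fits that left out a library, its adjusted p reached 0.14, and the higher count was 0 on leaving out vehicle replicate 1 or 3 or AEW replicate 2 or 3, and it was 3 when AEW replicate 1 was left out. Pparg, the nuclear receptor that drives sebocyte differentiation, was level at 62.6 ± 4.33 and 62.6 ± 2.68 CPM, a log2 fold change of 0.0013 with a standard error of 0.088. Prdm1 and Plet1 had log2 fold changes of 0.67 and 0.95 (adjusted p = 0.11 and 0.119).

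**Figure D5:**
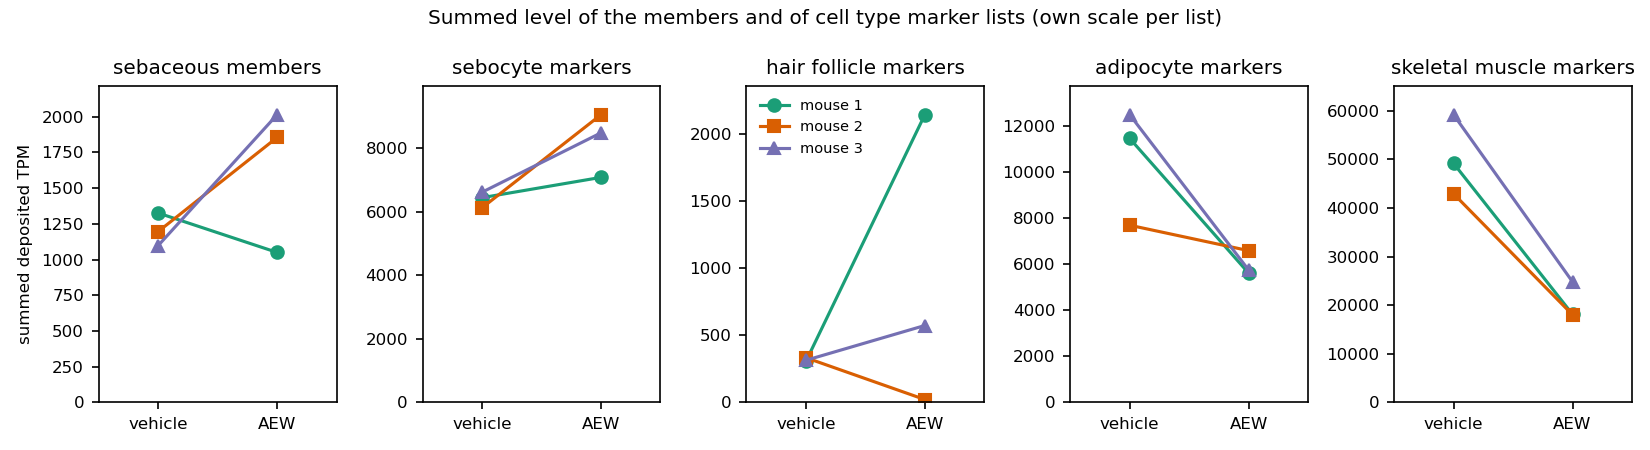
Panels plot the summed deposited TPM (vertical axis from 0, own scale) of the 10 members and of 4 cell type marker lists in vehicle and AEW skin, with lines joining both cheeks of a mouse. The member sum falls in mouse 1 and rises in mice 2 and 3, the hair follicle sum is highest in AEW mouse 1 (2140 TPM) and lowest in AEW mouse 2 (21.5 TPM), and the muscle sum falls in all 3 mice.

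Among the remaining marker lists, 3 of 12 tested markers of interfollicular keratinocytes were higher and 0 lower, with Krt1 and Krt2, keratins of the upper epidermis, at log2 fold changes of 1.89 and 2.00 (edgeR adjusted p = 0.0171 and 0.0216, both above 0.05 without vehicle replicate 1 or 3, and Krt2 also without AEW replicate 2). Of 16 tested hair follicle markers 0 were called in either direction by edgeR, with 2 higher and 0 lower at an unadjusted p under 0.05 and the same counts called by DESeq2. The signalling genes Lef1 and Shh measured 23.0 and 25.7 CPM in AEW mouse 1 and at most 5.58 and 2.07 CPM in any other library. Of 4 tested markers of salivary and lacrimal glands, which are also exocrine, 2 rose and 1 fell. Lpo, for lactoperoxidase, was higher by 5.10 on the log2 scale and Amy1, for an amylase, fell by 1.28 on that scale (edgeR adjusted p = 0.0089 and 0.0206). Neither was called without vehicle replicate 1 or 3, nor Amy1 without AEW replicate 2. The secretory markers Dcpp1, Smr3a and Bpifa2 were at or near 0 in all libraries.

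The mean profile of the 10 members over the 6 libraries, each gene's log2 CPM centred on its own mean, was lowest in AEW mouse 1 at -0.75 and highest in AEW mouse 3 at 0.40. The genes with the smallest root mean square difference from it were Slc2a6, Rasgrp4, Insig2, Xpnpep2 and Col6a6, at 0.072, 0.10, 0.11, 0.12 and 0.12 log2 units. Single members lay far from this mean, as in AEW mouse 1, where they ran from -2.72 for Scd3 to 0.24 for Soat1. A gene near the mean is thus not shown to follow any 1 member. Insig2, which holds back sterol synthesis, measured 132, 94.0 and 104 CPM in vehicle and 74.9, 139 and 139 CPM in AEW mice 1, 2 and 3. Among the members the closest pair by this measure was Far2 and Cidea (0.20), followed by Mc5r and Acsbg1 (0.28).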

How the data were processed

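For 6 libraries the authors deposited an estimated count per gene and, per the file headers, FPKM and TPM, along with a mean of each per group. Per the submitters' processing notes, HISAT and GRCm39 were used. Counting tool, annotation and strand setting were not given in the sources used here. Overlapping genes therefore cannot be told apart. Per the labels' protocols, reads were single-end with 50 bases.

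Estimated counts were rounded, filtered with filterByExpr of edgeR 4.0.16 in R 4.3.3 (minimum count 10), scaled by TMM (factors from 0.973 to 1.05) and fitted across all genes with the quasi-likelihood test, group as the only term, with Benjamini-Hochberg adjustment at 0.05. Standard errors are the log2 fold change over the square root of F. Per the labels, libraries with 1 number are cheeks of 1 animal and are thus paired. Within mice 1, 2 and 3 the correlation of group-centred values was -0.300, -0.103 and -0.0254, and between mice it ran from -0.212 to 0.265. Alternatives used DESeq2 1.42.0, limma 3.58.1 on log2(TPM + 1), log2(TPM + 0.1) and log2(FPKM + 1), other scalings, no filter, the mouse as a block, and each library left out. The fit was tested on simulated data. No pair of libraries agreed within sampling noise.

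Members and lists were chosen with earlier results of these data known. Named genes were the members, their closest relatives, those with the smallest p (4 per pathway list, 2 per marker list), and the 5 genes most like the members' mean profile (those averaging 1 or more in log2 CPM, without numbered Gm and Rik models). Elovl7 and the genes of the second profile were named after their values were seen, as were chromosomal neighbours. Promoters are from RefSeq (GRCm38.p6) and were searched for 8 of the 10 members. Mc5r and Cidea were not searched, because their chromosome was left out of this step. Of the regulators of the lineage, 1 gene is counted in its list and is not reported here.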

Additional observations from a re-analysis of the deposited data

How the results depend on the processing

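In the fit with group alone 0 members were higher and 1 lower, and 733 of all genes were higher and 1027 lower. The precision is limited by 3 libraries per group. With the replicate block the counts were 0 lower members, 300 and 588 of all genes, 0 lower of the wax ester and glyceride list, 3 lower of the fatty acid list and 0 higher of the melanocortin list, and with this pairing the lower adipocyte markers went from 4 to 0 and the higher salivary and lacrimal markers from 2 to 1. No other count of members, pathway genes or markers moved by over 1.5 times.

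DESeq2 called 1 member higher and 2 lower, and 1362 of all genes higher. Its list counts were 3 higher for wax esters and glycerides, 6 higher and 8 lower for fatty acids, 1 higher and 6 lower for droplets, 3 lower for melanocortin genes and 3 higher for regulators. The count of lower members was 0 with DESeq2 size factors, library totals alone, scaling without muscle markers, no low-count filter and log2(FPKM + 1), where Mogat1 had adjusted p of 0.051, 0.0556, 0.0502, 0.0628 and 0.0506. Limma on either TPM scale gave 666 lower of all genes and 3 lower of the fatty acid list, and on TPM and FPKM 0 lower of the wax ester and of the melanocortin list. For the wax ester list library totals gave 2 higher and 0 lower, no filter 1 higher and 1 lower, and log2(TPM + 0.1) 1 higher. The scalings moved the median of all genes by at most 0.033 (log2).

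Leaving out 1 library gave 23 to 1197 higher and 117 to 1041 lower of all genes, 0 to 3 higher and 0 to 2 lower members, 0 to 4 higher and 0 to 3 lower for wax esters, 0 to 6 and 1 to 9 for fatty acids, 0 to 3 and 0 to 5 for droplets, 0 to 1 and 0 to 2 for melanocortin genes, and 0 to 3 and 0 to 1 for regulators. No member changed sign in these 6 fits.

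In fits with the mouse as a block and both cheeks of a mouse left out, chosen after seeing the data, 1922 of all genes were higher and 1588 lower without mouse 1, 112 and 279 without mouse 2, and 0 and 0 without mouse 3 (edgeR, 4 libraries). Members counted 4 higher and 3 lower without mouse 1, and 0 lower without mouse 2 or mouse 3. Awat2 turned to -0.20 without mouse 2 and -0.037 without mouse 3, and Cidea to -0.066 without mouse 3. The cause was not tested. Reads of Scd3 shared with its relatives and the low counts of Mogat1 limit those values.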

Other observations

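The mean profile of Awat1, Awat2 and Dgat2l6 over the 6 libraries, chosen after the values were seen, was most closely followed by Mansc1, Aadacl4, Ces4a, Klk10 and Spx, with root mean square differences of 0.16, 0.18, 0.19, 0.20 and 0.21 log2 units. Ces4a, a carboxylesterase gene, measured 142, 55.3 and 73.9 CPM in vehicle and 47.0, 351 and 368 CPM in AEW mice 1, 2 and 3. Klk10, a kallikrein protease gene, measured 240.4, 138 and 132 CPM in vehicle and 112, 523 and 613 CPM in AEW mice 1, 2 and 3. None of the 5 was called by the edgeR fit (adjusted p from 0.182 to 0.27).

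Among the genes of the pathway lists, Elovl7 and Scd4 were also at least 1.5 fold lower on the treated side in mouse 1 and at least 2 fold higher there in mice 2 and 3. Elovl7, a fatty acid elongase gene, measured 177, 71.9 and 85.7 CPM in vehicle and 95.6, 455 and 433 CPM in AEW mice 1, 2 and 3. For the looser pattern, lower in mouse 1 and higher in mice 2 and 3 by any amount, 5 of 10 members and 12.6% of all tested genes qualified. Both patterns were drawn from the members' own values, so these counts describe the members and test nothing. Of the members 4 were lower in all 3 mice and 1 was higher in all 3, against 26.9% and 25.3% of all tested genes.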
